A study of Mus musculus with 6 samples.

Results

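The genes described here are 10 markers of white and brown fat cells, taken by symbol from a table of 54532 mouse genes: Adipoq, Lep, Retn, Cfd, Plin1, Cidec, Adrb3, Ucp1, Cidea and Elovl3. They were measured by bulk RNA sequencing in whole adrenal glands of mice, in 6 samples, 3 with the label WT and 3 with VEGF/LysM, a series made to learn how VEGF-A from macrophages affects the gland. LysM is another name of Lyz2, a gene of myeloid cells; the labels describe neither the alleles nor the age of the mice, and do not say whether a library is 1 mouse or a pool. Nothing in them says that replicates came from separate animals, so p-values reflect only how these samples spread, and that spread may be technical. All 10 genes passed the filter on low counts, and each was present in every library.

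White fat cells store triglyceride in a single large lipid droplet and secrete hormones such as leptin and adiponectin, while brown fat cells hold many small droplets and burn fatty acids in mitochondria uncoupled by Ucp1. The mouse adrenal lies in a fat pad that can hold both kinds of cell. None of the 10 genes is a classical marker of the steroid-making cortex or the catecholamine-making medulla. Here they are read as markers of the fat that came with the gland. Whether cells of the gland also made part of their RNA, that of Plin1 included, was not tested. In whole-tissue RNA, fewer fat cells and less RNA of a gene per fat cell cannot be told apart.

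Library totals ran from 16476879 to 18671950 counts, and the 10 genes together took 0.176% to 0.454% of them. Levels are given as CPM, library counts scaled to a common size with TMM factors. The cortex and medulla markers were abundant in every library, as the tissue label says: Cyp21a1, a steroid hydroxylase, stood at 5933 to 14076 CPM and Chga, a granule protein of chromaffin cells, at 1231 to 3087 CPM. WT replicate 3 stood apart. Its 16 hepatocyte markers took 7.16% of all counts against 0.0141% to 0.0984% in the other libraries, and all 16, all 10 kidney tubule markers and all 6 lymphocyte markers were highest there. The 8 cortex markers summed to 27834 CPM in WT replicate 3 against 43440 to 52772 in the others. Alb, serum albumin, read 50650 CPM in WT replicate 3, 166 CPM in VEGF/LysM replicate 3 and at most 1.04 CPM in the others. Results are therefore also given without WT replicate 3.

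The comparison of white with brown genes turns on Lep, Adipoq, Ucp1 and Cidea, and the promoter table held a sequence for the first 3. These are the 250 bases before the RefSeq start of each gene (GRCm38.p6, plus strand in each case), at chr6:29059971-29060220 for Lep, chr16:23146286-23146535 for Adipoq and chr8:83290098-83290347 for Ucp1. Capitals mark every match, on either strand, to TTNNGCAA (C/EBP factors), AGGTCA (the core letters of nuclear receptor sites), CCAAT (a common promoter box), TATAA (the TATA box) and TGACG (the core letters of cyclic AMP response elements).
Lep: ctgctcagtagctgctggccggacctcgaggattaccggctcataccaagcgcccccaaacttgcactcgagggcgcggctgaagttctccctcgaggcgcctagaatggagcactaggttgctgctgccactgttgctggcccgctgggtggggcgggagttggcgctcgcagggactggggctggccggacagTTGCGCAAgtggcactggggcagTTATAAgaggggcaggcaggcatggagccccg
Adipoq: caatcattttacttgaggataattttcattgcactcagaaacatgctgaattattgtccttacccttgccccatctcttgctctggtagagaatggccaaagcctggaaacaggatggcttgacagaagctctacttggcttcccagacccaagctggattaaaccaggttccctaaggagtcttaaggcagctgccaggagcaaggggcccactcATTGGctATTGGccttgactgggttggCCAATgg
Ucp1: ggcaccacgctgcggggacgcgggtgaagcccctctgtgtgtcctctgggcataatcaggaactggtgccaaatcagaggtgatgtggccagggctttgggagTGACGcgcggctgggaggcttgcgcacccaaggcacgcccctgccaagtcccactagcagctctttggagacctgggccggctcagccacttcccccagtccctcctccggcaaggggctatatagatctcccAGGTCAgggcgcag

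The 3 windows shared no searched motif with each other. Lep held TTGCGCAA, a palindromic C/EBP match 55 to 48 bases before its start, found in 0.164% of all 32851 promoter windows of the table; the looser TTNNGCAA, which includes it, was found in 9.56%. A TATAA match lay 31 to 27 bases before the Lep start, overlapping TTATA on the other strand (22.8% of windows; the longer TATAAA, in 12.4%, was in none of the members). Adipoq held CCAAT in 3 places, 34 to 30, 27 to 23 and 7 to 3 bases before its start (33.8% of windows). Ucp1 held TGACG 147 to 143 bases before its start (17.8% of windows) and AGGTCA 14 to 9 bases before it (14.0%). Among the other members, Plin1 held TTNNGCAA in 2 places and Cidec in 1, and the windows of Cfd and Retn held none of these motifs. Cidea, Elovl3 and Adrb3 had no entry. A match describes letters only and was not tested as a binding site.

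Among the secreted proteins of white fat, Cfd was by far the most abundant. Cfd encodes adipsin, the complement factor D that fat cells release (ENSMUSG00000061780, chromosome 10, 79890853 to 79892655, plus strand, GRCm38). It stood at 2806, 2434 and 1322 CPM in the WT libraries (replicates 1 to 3, in order) and 497, 2665 and 2485 CPM in the VEGF/LysM libraries. VEGF/LysM replicate 1 was 5.64-fold below the highest library, and its 2 fellow replicates lay within the WT range. Cfd made up 29.5% of the counts of the 10 genes in VEGF/LysM replicate 1, 45.6% in WT replicate 3 and 60.7% to 68.4% in the other 4 libraries.

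Retn encodes resistin, a hormone of mouse white fat (ENSMUSG00000012705, chromosome 8, 3655770 to 3660110). It ordered the 6 libraries exactly as Cfd did, with 258, 216 and 93.3 CPM in the WT libraries and 70.2, 241 and 232 CPM in VEGF/LysM. Adipoq encodes adiponectin, the hormone that marks mature fat cells of both kinds (ENSMUSG00000022878, chromosome 16, 23146536 to 23158028). Its values were 307, 378 and 222 CPM in the WT libraries and 218, 376 and 375 CPM in VEGF/LysM. The same 2 libraries, VEGF/LysM replicate 1 and WT replicate 3, were the lowest for Cfd, Retn and Adipoq, 1 in each group, and the groups overlapped for all 3 genes.

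Lep encodes leptin, the hormone by which white fat signals its stores (ENSMUSG00000059201, chromosome 6, 29060220 to 29073877). It did not follow the other hormones: it stood at 23.3, 30.2 and 6.81 CPM in the WT libraries and 54.9, 26.2 and 18.9 CPM in VEGF/LysM. VEGF/LysM replicate 1, lowest for Cfd, Retn and Adipoq, was highest for Lep. WT replicate 3 was lowest, with 93 counts (95% Poisson interval 75.1 to 114, counting error only). The highest library exceeded the lowest 8.07-fold, and 2.90-fold without WT replicate 3.

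The coat of the lipid droplet varied least. Plin1 encodes perilipin, which guards the droplet against lipases (ENSMUSG00000030546, chromosome 7, 79720218 to 79732903), and Cidec encodes a protein that fuses droplets (ENSMUSG00000030278, chromosome 6, 113424634 to 113435760). Plin1 stood at 244, 377 and 318 CPM in the WT libraries and 276, 391 and 292 CPM in VEGF/LysM. Cidec stood at 303, 310 and 336 CPM in the WT libraries and 241, 305 and 389 CPM in VEGF/LysM. On the TMM scale neither varied more than 1.61-fold across the 6 libraries, and WT replicate 3 was inside the range of the others for both. For Plin1 that place rested on the scaling. Unscaled, WT replicate 3 held 4349 of 17334677 counts, a smaller share than the 4360 of 16839326 in WT replicate 1. Adrb3, the fat cell receptor through which catecholamines release stored fat and switch on heat production (ENSMUSG00000031489, chromosome 8, 27225776 to 27250616), read 77.5, 89.8 and 51.2 CPM in the WT libraries and 51.7, 108 and 100.03 CPM in VEGF/LysM. Its 2 low libraries were those of Adipoq.

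Ucp1 varied most of the 10 genes. It encodes the uncoupling protein that defines brown and beige fat cells (ENSMUSG00000031710, chromosome 8, 83290352 to 83298452). It stood at 19.2, 48.4 and 359 CPM in the WT libraries and 148, 165 and 11.5 CPM in VEGF/LysM, so that the highest and lowest of all 6 libraries were replicate 3 of each group. The 31.1-fold range of Ucp1 was wider on the log2 scale than that of 98.9% of 15192 genes with a mean of at least 1 CPM. Without WT replicate 3 it was 14.3-fold, wider than that of 99.8% of the same genes. Alb was highest in WT replicate 3, where Ucp1 was highest, and second highest in VEGF/LysM replicate 3, where Ucp1 was lowest. The part of liver RNA in the level of Ucp1 was not tested.

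Cidea, which enlarges droplets and is abundant in brown fat (ENSMUSG00000024526, chromosome 18, 67343604 to 67367785), stood at 62.9, 79.0 and 186 CPM in the WT libraries and 127, 116 and 26.2 CPM in VEGF/LysM. It ordered the libraries as Ucp1 did except that VEGF/LysM replicates 1 and 2 changed places. Elovl3, an enzyme that lengthens fatty acids in cold-stimulated brown fat and is also made by liver (ENSMUSG00000038754, chromosome 19, 46131897 to 46135694), was scarce. It had 11, 22 and 107 counts in WT and 44, 23 and 16 in VEGF/LysM, or 0.617 to 7.83 CPM. The 95% Poisson interval in WT replicate 3, 87.7 to 129 counts, lay above those of the other libraries, whose intervals reached from 5.49 to 59.1 counts. As the hepatocyte markers were also highest in WT replicate 3, the part of liver RNA in that value was not tested. By fold range over the 6 libraries Elovl3 (12.7) came after Ucp1, followed by Lep (8.07) and Cidea (7.09). Without WT replicate 3, Cfd (5.64) exceeded both Cidea (4.86) and Elovl3 (4.12).

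**Figure D1:**
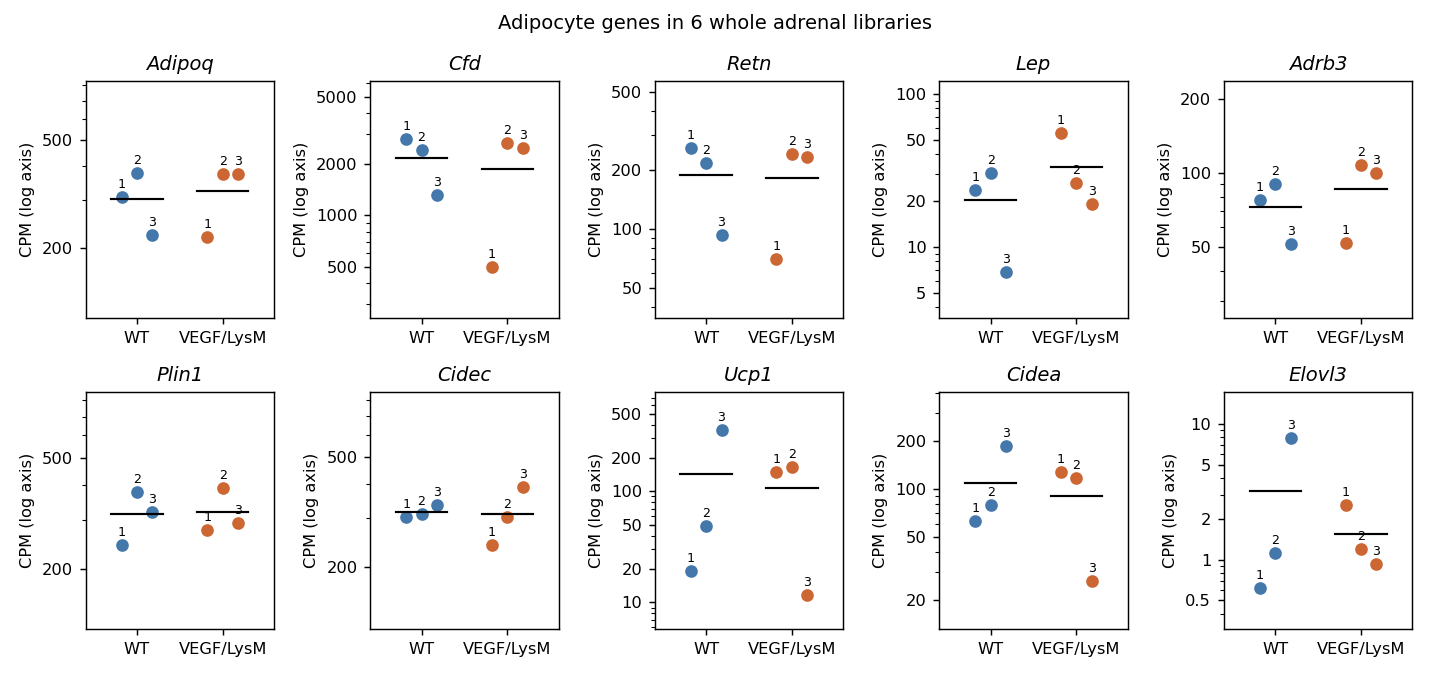
Each panel shows 1 gene, with TMM-scaled CPM on a log axis for the 3 WT (blue) and 3 VEGF/LysM (orange) libraries, numbered by replicate, and the group mean as a line. Ucp1 reaches from 11.5 to 359 CPM, while Plin1 and Cidec stay between 241 and 391 CPM, and the groups overlap for every gene.

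To set genes side by side, CPM were divided by the length of the longest coding transcript in kilobases. Cfd then led at 2207 CPM per kb (mean of 6 libraries), ahead of Adipoq at 242, Cidec at 183, Retn at 163, Plin1 at 112, Cidea at 89.3, Ucp1 at 76.6, Adrb3 at 28.5, Lep at 8.20 and Elovl3 at 1.26. Cfd exceeded Adipoq in 6 of 6 libraries and Adrb3 exceeded Lep in 6 of 6. The other neighbours were less settled: Adipoq exceeded Cidec in 5 libraries, Cidec Retn in 3, Retn Plin1 in 4, Plin1 Cidea in 4, Cidea Ucp1 in 5, Ucp1 Adrb3 in 3 and Lep Elovl3 in 5. With all exons as the length, Plin1 (81.7) and Cidea (89.3) changed places. On this scale leptin RNA was therefore a minor product in every library, from 2.09 to 16.8 CPM per kb, and Ucp1 ran from 7.06 to 219.

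Ratios within a library need no scaling between libraries. Adipoq exceeded Ucp1 per kb 20.2-fold, 9.88-fold and 0.782-fold in WT replicates 1 to 3 and 1.87-fold, 2.88-fold and 41.2-fold in VEGF/LysM replicates 1 to 3. WT replicate 3 was thus the only library with more Ucp1 than Adipoq. Against Cidea the Adipoq ratio was 4.21, 4.13 and 1.03 in WT and 1.48, 2.78 and 12.4 in VEGF/LysM. The ratio of Lep to Ucp1 was 0.607, 0.313 and 0.00952 in WT and 0.186, 0.0798 and 0.822 in VEGF/LysM, an 86.4-fold range, and that of Lep to Cidea ran from 0.0126 (WT replicate 3) to 0.247 (VEGF/LysM replicate 3). In each of the 4 ratios WT replicate 3 was lowest and VEGF/LysM replicate 3 highest, and the groups overlapped.

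**Figure D2:**
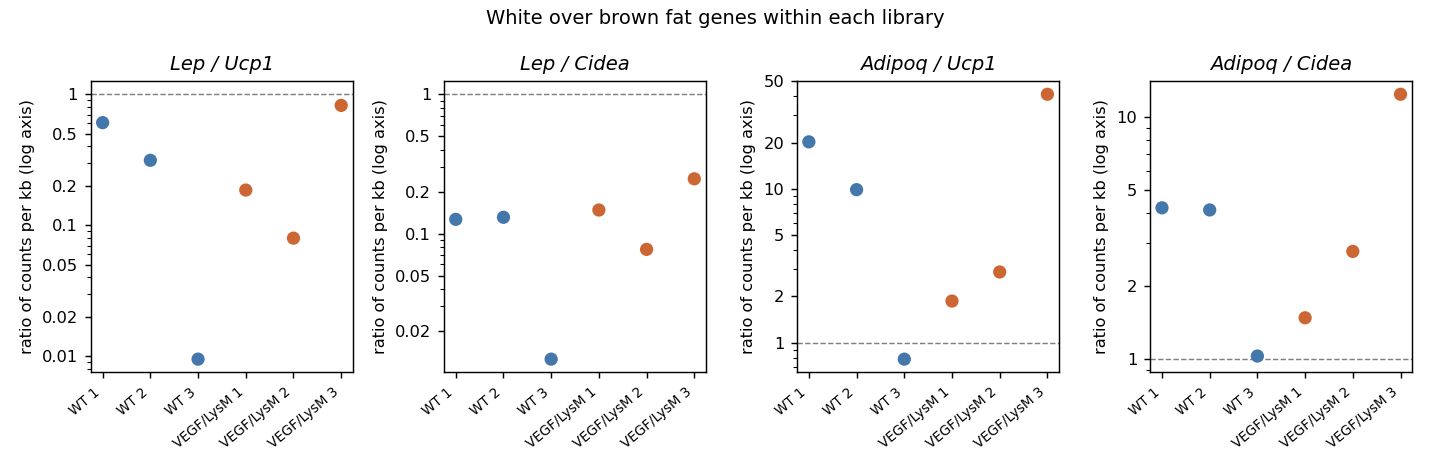
Points give the ratio of counts per kb of Lep or Adipoq to Ucp1 or Cidea in each library, on a log axis. WT is in blue and VEGF/LysM in orange, and the dashed line marks equal levels. Lep and Adipoq stand for white fat here, though Adipoq marks fat cells of both kinds. WT replicate 3 is lowest in each panel, down to 0.00952 for Lep over Ucp1, and VEGF/LysM replicate 3 is highest, up to 41.2 for Adipoq over Ucp1.

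A white minus brown difference was taken in each library as the mean log2(CPM + 0.5) of Lep and Adipoq less that of Ucp1 and Cidea, a scale on which gene length adds the same constant to each library. It was 1.27, 0.79 and -2.68 in WT and -0.32, -0.47 and 2.25 in VEGF/LysM. The WT mean was -0.21 ± 2.16 and the VEGF/LysM mean 0.49 ± 1.53 (SD, n = 3), and their difference of 0.69 was smaller than the pooled SD of 1.87. Taken over all 4 secreted white-leaning members and all 3 brown-leaning members, the difference was 0.35. The difference of 0.69, from Lep, Adipoq, Ucp1 and Cidea alone, turned to -0.55 without WT replicate 3 and to -0.19 without VEGF/LysM replicate 3. Adipoq counts as white in this score but marks fat cells of both kinds. No test was made of the score, and 3 samples against 3 cannot give an exact permutation p below 0.1.

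Each member was also set against Plin1, a marker of fat cells of either kind. Ucp1 per Plin1, both per kb, was 0.136, 0.221 and 1.94 in WT and 0.926, 0.727 and 0.0681 in VEGF/LysM, a 28.5-fold range. Cfd per Plin1 was 35.1, 19.7 and 12.7 in WT and 5.50, 20.8 and 26.0 in VEGF/LysM, a 6.37-fold range, and Lep per Plin1 varied 9.30-fold, from 0.0185 in WT replicate 3 to 0.172 in VEGF/LysM replicate 1. Retn varied 4.16-fold, Cidea 6.51-fold and Elovl3 9.75-fold against Plin1. Adipoq varied 1.85-fold, Cidec 1.71-fold and Adrb3 2.13-fold. The ranges of Ucp1, Cidea and Elovl3 were narrower against Plin1 than alone. Those of Cfd, Lep, Retn, Adipoq, Cidec and Adrb3 were wider. None of the 18 ratios computed separated the groups.

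Profiles over the 6 libraries were compared by the root mean square distance between log2 levels after each gene's own mean was removed, so that 0 means the same profile. Adrb3 lay nearest to Adipoq of the members, at 0.107 log2 units, the seventh closest of 15191 genes. The others were less close: Cidec lay at 0.303 (rank 1501), Plin1 at 0.321 (rank 2214), Retn at 0.446 (rank 9030), Cfd at 0.632 (rank 12831), Lep at 0.894 (rank 14134) and Ucp1 at 1.97 (rank 15043). The nearest member to Ucp1 was Cidea, at 0.937, also the seventh closest of 15191, followed by Elovl3 at 1.12 (rank 38). Cfd and Retn were 0.297 apart. Without WT replicate 3 the distances of Adipoq to Adrb3 (0.103), of Cfd to Retn (0.256) and of Ucp1 to Cidea (0.820) were like those with it, but that of Lep to Elovl3 fell from 1.62 to 0.224 and that of Lep to Cidea from 1.34 to 0.534. The distance of Lep to Ucp1 fell from 2.12 to 1.19, still above that of Lep to Adipoq without WT replicate 3 (0.781). The place of Lep beside or against Cidea and Elovl3 therefore rested on WT replicate 3. These distances describe 6 libraries that share their preparation and carry no test.

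Outside the members, the 3 genes with profiles most like Adipoq were Rflnb (0.0690), Wdr93 (0.0897) and 1700055D18Rik (0.0928), of 15182 genes with a median distance of 0.415. Those most like Ucp1 were Slc25a48, a mitochondrial carrier (0.817), Slc4a4, a bicarbonate cotransporter (0.842), and Otop1, a proton channel known from brown fat (0.862), against a median of 1.77. Otop1 stood at 4.26, 9.20 and 21.2 CPM in the WT libraries and 16.0, 15.3 and 3.71 CPM in VEGF/LysM, an order of libraries close to that of Ucp1. Without WT replicate 3 Otop1 was the second closest to Ucp1 (0.700), Slc25a48 the ninth and Slc4a4 the sixteenth.

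**Figure D3:**
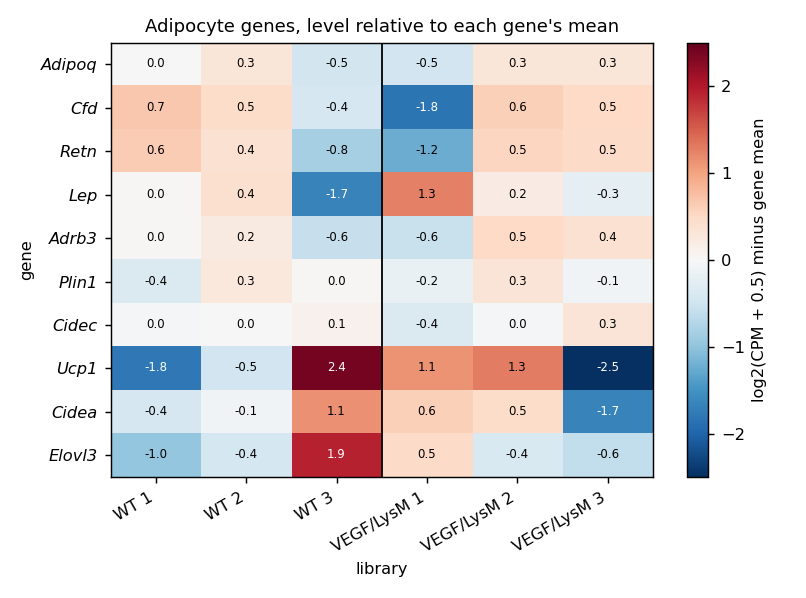
Colours and numbers give log2(CPM + 0.5) less the mean of each gene over the 6 libraries, with WT left and VEGF/LysM right of the line. Ucp1, Cidea and Elovl3 are high in WT replicate 3, Cfd and Retn are low in VEGF/LysM replicate 1, and Lep is highest in that library.

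Between the groups, no fat gene passed the test. At an adjusted p of 0.05, edgeR found 0 of the 10 members different, against a background of 0% of 16300 genes; 0 of 10 members had an unadjusted p under 0.05, against 2.82% of all genes. DESeq2, limma-voom and limma-voom with sample weights also called 0 members. Under an unadjusted p of 0.05 each had 0 members, against 3.33%, 1.37% and 1.84% of all genes in that order. The groups did not overlap for 0 of 10 members, against 5.95% of all genes. The log2 fold changes, VEGF/LysM minus WT, were above 0 for 4 members and below 0 for 6, with a median of -0.044 beside 0.0013 for all genes tested.

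The limits of the data differed by gene. For Plin1 the log2 fold change was 0.029 ± 0.22 (SE) with a 95% interval of -0.50 to 0.56, and for Cidec -0.024 ± 0.20 with -0.50 to 0.46. Adipoq had 0.097 ± 0.29 (-0.58 to 0.77) and Adrb3 0.25 ± 0.32 (-0.52 to 1.01). These 4 intervals reached little beyond 1 log2 unit to either side. Retn had -0.065 ± 0.53, Cfd -0.22 ± 0.61 and Lep 0.73 ± 0.59, with an interval for Lep of -0.68 to 2.13. Ucp1 had -0.39 ± 1.21 with -3.27 to 2.48, Cidea -0.28 ± 0.63 with -1.78 to 1.22 and Elovl3 -1.02 ± 0.95 with -3.28 to 1.25. The adjusted p was 0.999 for each of the 10 in edgeR's test, which does not show that the groups were alike.

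The direction of the brown genes turned without WT replicate 3. For Ucp1 and Cidea it also turned without VEGF/LysM replicate 3, to 0.14 and 0.16, while Elovl3 stayed below 0 at -0.75. Without WT replicate 3 the log2 fold change of Ucp1 was 1.67 ± 0.87 (SE, 95% interval -0.30 to 3.65). That of Cidea was 0.34 ± 0.52 and that of Elovl3 0.82 ± 0.60. No member passed then (edgeR, adjusted p = 0.9999 for each, beside 0.006% of 16659 genes called), and the groups of the remaining libraries overlapped for all 10 members, against 14.4% of genes without overlap. The 1 gene called was Sumo2, named after its value was seen. Without replicate 3 of both groups edgeR called 0 members and 0% of genes. Ucp1 and Cidea, 2 of 10 members, had an unadjusted p under 0.05 in edgeR's test, against 2.31% of genes. For Ucp1 and Cidea the libraries left out were the highest and the lowest of all 6, so these p-values rest on that choice. They give no support for a difference between the groups. In that set of 2 against 2, Ucp1, Cidea and Elovl3 were higher in both VEGF/LysM libraries than in both WT libraries. Their log2 fold changes were 2.22, 0.79 and 1.10, and 15.2% of all genes were higher in this way. The share of all genes apart in either direction was not computed. For Elovl3 the separation rested on 23 counts in VEGF/LysM replicate 2 against 22 in WT replicate 2, within counting error. Without VEGF/LysM replicate 1 the groups did not overlap for Adrb3 alone among the members (10.8% of genes).

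**Figure D4:**
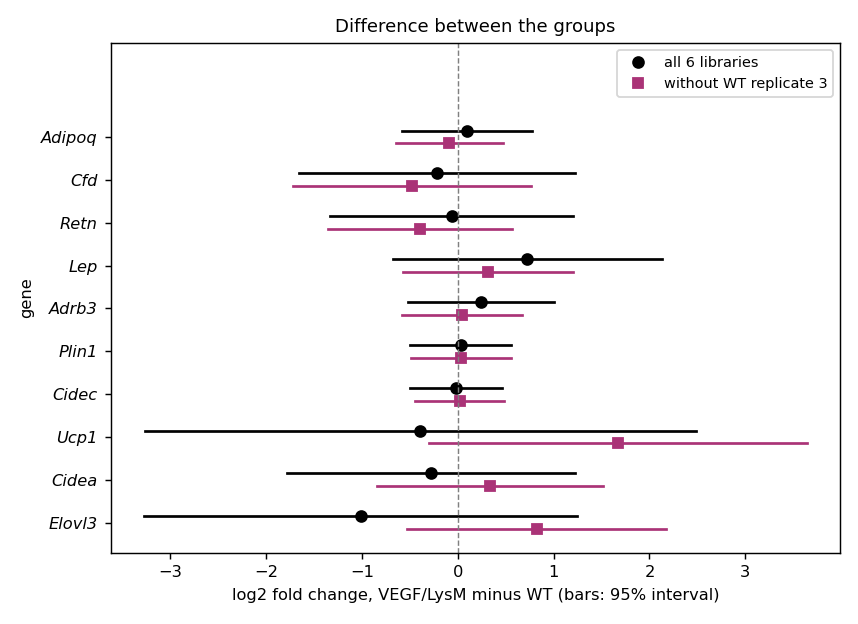
Log2 fold changes of the 10 genes, VEGF/LysM minus WT, with 95% intervals from edgeR's fit, for all 6 libraries (black circles) and without WT replicate 3 (purple squares). Each interval holds 0, and Ucp1 moves from -0.39 to 1.67 when WT replicate 3 is left out.

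Other thermogenic genes were read from a list of 27, of which 23 passed the filter. edgeR called 0 of them, with 10 above 0 and 13 below 0 and a median log2 fold change of -0.14. Without WT replicate 3, 20 of 23 were above 0 with a median of 0.43 (0.0080 for all genes). Without replicate 3 of both groups it was 21 of 23 with 0.47, and again 0 passed. Most of the list was highest in WT replicate 3, and 12 of the 23 were lowest in VEGF/LysM replicate 3. These counts therefore rest on the libraries left out and give no support for a difference between the groups. The share of all genes above 0 was not computed. In WT replicate 3, 20 of the 27 were at their highest, among them genes that hepatocytes also make, such as Slc27a2, a fatty acid transporter, at 655 CPM there against 2.69 to 9.17 in the others. Cox8b, a subunit of cytochrome oxidase in heart, muscle and brown fat, stood at 24.1, 27.8 and 76.1 CPM in the WT libraries and 51.5, 53.2 and 24.1 CPM in VEGF/LysM. Slc25a20, the mitochondrial acylcarnitine carrier, stood at 57.7, 59.1 and 125 CPM in the WT libraries and 77.3, 81.2 and 61.6 CPM in VEGF/LysM. The median level of the 23 genes, relative to each gene's mean, was -0.58, -0.12 and 1.05 in WT and 0.16, 0.19 and -0.64 in VEGF/LysM, the same order of libraries as the median of Ucp1, Cidea and Elovl3 (-0.97, -0.44 and 1.93; 0.59, 0.46 and -1.67), save that VEGF/LysM replicates 1 and 2 changed places.

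Muscle RNA was near 0 beside these genes: Ckm, muscle creatine kinase, had 0 to 8 counts in any library, and the 12 skeletal muscle markers summed to 3.30 to 8.57 CPM. Zic1, a transcription factor of the classical brown fat between the shoulder blades and named here after its values were seen, had 0 counts in all 6 libraries, which allows up to 0.161 to 0.182 CPM of a library's unscaled total (counting error only). Lhx8, another such factor and likewise named afterwards, had 4 to 17 counts. Prdm16 and Ebf2, transcription factors of the same thermogenic list and also named afterwards, had 98 to 178 and 70 to 238 counts. Which kind of brown fat these counts came from was not tested.

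**Figure D5:**
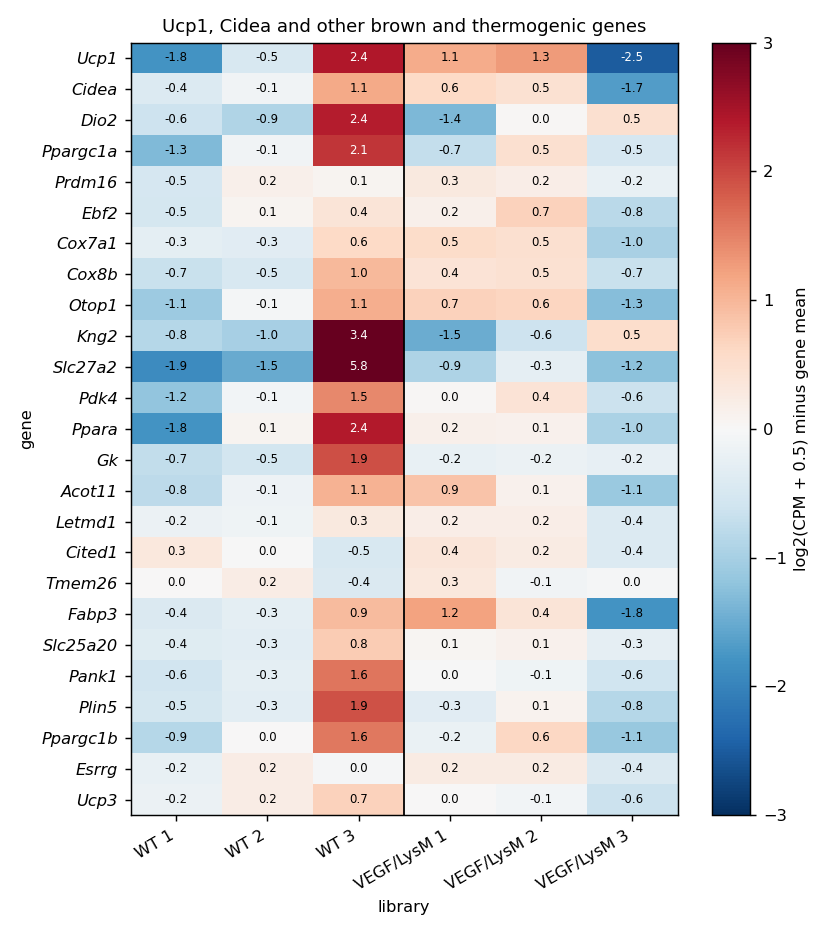
Log2(CPM + 0.5) less the mean of each gene, for Ucp1, Cidea and the 23 other brown and thermogenic genes that passed the filter, in the 6 libraries. Of the 23, 20 are above their own mean in WT replicate 3 and 21 below it in VEGF/LysM replicate 3. The same counts were 6 and 6 of 6 lymphocyte markers, 7 and 7 of 8 genes of fat stroma and mesothelium, and 21 and 23 of 33 genes of both fats. They were 0 and 2 of 8 for cortex, 0 and 0 of 6 for medulla, 7 and 1 of 7 for hepatocytes, and 4 and 7 of 11 for other white-leaning genes. The share over all genes was not computed. Values above 3, such as 5.81 for Slc27a2 in WT replicate 3, lie beyond the end of the colour scale.

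Genes shared by both fats showed no called difference, with 0 of 33 passing edgeR's test, 12 above 0 and a median log2 fold change of -0.060 (18 above 0 and 0.033 without WT replicate 3). Fabp4, a fatty acid carrier of fat cells and capillaries, was the most abundant per kb and stood at 1099 to 1182 CPM in the WT libraries and 1110 to 1687 CPM in VEGF/LysM. Scd1, a fatty acid desaturase, ran from 3293 CPM in VEGF/LysM replicate 3 to 8634 CPM in VEGF/LysM replicate 2. Cd36, a fatty acid transporter with the smallest p of the list, stood at 310 to 473 CPM in the WT libraries and 510 to 539 CPM in the VEGF/LysM libraries. Its log2 fold change of 0.50 ± 0.20 (SE) did not pass over all genes (edgeR, adjusted p = 0.999). Many genes of this list are also made by cortex cells, vessels or liver.

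Of 12 further white-leaning genes 11 passed the filter and 0 were called, with 7 above 0 and a median of 0.066 (5 above 0 and -0.077 without WT replicate 3). The most abundant per kb, Wfdc21 and Agt were highest in WT replicate 3, where Wfdc21 read 188 CPM against 0.168 to 1.86 elsewhere and Agt, the liver's angiotensinogen, 567 CPM against 4.28 to 17.4. Wfdc21 also had the smallest p of the list. The part of liver RNA in these values was not tested.

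Markers of the tissue around fat cells showed no called difference. Of 8 genes of fat stroma and mesothelium, the sheet that covers the abdominal organs, 0 were called and 3 were above 0, with a median log2 fold change of -0.10 (5 above 0 and 0.092 without WT replicate 3). Their median level relative to each gene's mean was -0.10, 0.23 and 0.36 in WT and -0.63, 0.90 and -1.04 in VEGF/LysM. The median was lowest in VEGF/LysM replicate 3, as were 4 of the 8 genes. Ly6a, a surface protein of stromal and endothelial cells, ran from 47.6 CPM in VEGF/LysM replicate 1 to 96.4 CPM in WT replicate 3. Dpp4, a surface peptidase with the smallest p of the list, read 93.2 CPM in WT replicate 3 against 2.54 to 4.92 in the other libraries. Pdgfra, a receptor of stromal cells, stood at 61.6, 71.9 and 47.9 CPM in the WT libraries and 91.0, 74.5 and 53.6 CPM in VEGF/LysM. VEGF/LysM replicate 3 also had the highest summed level of the 6 medulla markers, 9302 CPM against 3731 to 6831 CPM in the others. Whether the dissection of the glands had a part in the differences between libraries was not tested.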

How the data were processed

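Whole adrenal glands gave 6 libraries, 3 labelled WT and 3 VEGF/LysM; per the labels' protocols only RNA of high integrity was used and libraries followed Smart-seq2, which does not mark strand. The authors deposited 1 table of whole-number counts per gene, not normalised; the submitters' processing notes list mm10, kallisto and DESeq2 1.36.0, while their roles, the annotation and the rounding step were not given in the sources used here. Columns were matched by title, and members by Ensembl identifier through the GENCODE gene names; 54409 of 54532 genes had a symbol.

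Genes were filtered with filterByExpr (minimum count 10, minimum total 15; 16300 kept) and scaled by TMM on library totals (factors 1.03 to 1.06, and 0.788 in WT replicate 3). edgeR 4.0.16 (R 4.3.3) ran its quasi-likelihood test on a model of group alone, with Benjamini-Hochberg adjustment over all genes and a threshold of 0.05. SE and 95% intervals come from that fit. The smallest levels rest on few counts and carry more counting error. Lengths and positions are from GENCODE M21 (GRCm38), promoters from RefSeq (GRCm38.p6), of which 7 of 10 members had one, Cidec with 2. Profiles used log2(CPM + 0.5).

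The members, lists and rules were chosen with earlier results of these data known. Named were the 10 members, and in each other list the 2 genes of highest CPM per kb and the 1 of smallest p. Of the muscle, liver, kidney, cortex, medulla and lymphocyte lists, the text gives counts, sums and a single gene at most. Also named were 3 genes nearest in profile to Adipoq and to Ucp1. Zic1, Lhx8, Prdm16, Ebf2, Ckm and Sumo2 were named after their values were seen. The steps were tested on simulated counts. Alternatives were 4 other scalings, 2 other filters, DESeq2 1.42.0, limma-voom 3.58.1 with and without weights, a replicate block, a threshold of 0.1, each library left out and replicate 3 of both groups left out; for fold ranges and list counts, the values without these libraries were added after the data were seen.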

Additional observations from a re-analysis of the deposited data

How the results depend on the processing

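Of 180 log2 fold changes of the 10 genes under the alternatives, 149 kept their direction and 31 reversed. The 149 include the 10 values under a threshold of 0.1, which reused the main fit and could not reverse. None of the 10 genes passed the threshold in any alternative. Cidec turned to 0.0070 with upper-quartile scaling and 0.087 by library size. With sample weights in limma-voom, Adipoq read -0.20, Plin1 -0.043, Ucp1 1.16, Cidea 0.22, Elovl3 0.51 and Adrb3 -0.093. Leaving out 1 library at a time gave -0.088 to 0.30 for Adipoq, 0.15 to 1.15 for Lep, -0.39 to 0.30 for Retn, -0.58 to 0.22 for Cfd, -0.16 to 0.19 for Plin1, -0.21 to 0.11 for Cidec, -0.90 to 1.67 for Ucp1, -0.63 to 0.34 for Cidea, -1.58 to 0.82 for Elovl3 and 0.039 to 0.49 for Adrb3. It gave 0 to 1 genes called, 0 to 1 members whose groups did not overlap, and -0.55 to 1.43 for the white minus brown difference. Without replicate 3 of both groups, Retn read -0.60, Cfd -0.72, Adipoq -0.20, Ucp1 2.22, Cidea 0.79, Elovl3 1.10 and Adrb3 -0.064. The groups then did not overlap for 3 members, each higher in VEGF/LysM, beside 15.2% of all genes in that direction. The Elovl3 range fell from 12.7-fold to 4.12-fold without WT replicate 3. With the replicate block Ucp1 read 0.77 and 0 genes were called; same-numbered samples correlated at 0.081, 0.0024 and 0.26 in their deviations, not every sample correlated best with its own number, and the numbers were not taken as pairs. The cause of these changes was not tested. Counting error weighs most for Elovl3, at 11 to 107 counts.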
